A study of Mus musculus with 55 samples.

Results

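The collagen genes of the mouse oocyte libraries were taken as every gene whose symbol consists of Col, a number, the letter a and a number, as in Col1a1. There were 44 such genes of 51734 genes in the count tables. RNA was sequenced from single fully grown oocytes (FGOs), the largest oocytes of the adult ovary, and from metaphase II (MII) oocytes, the mature eggs, with 1 oocyte to each library. The labels do not name the females, so p-values measure the spread between libraries. The FGOs came from females of 10 to 12 weeks and fell into 4 groups: 18 wild-type (WT) FGOs, 8 FGOs with both copies of Dnmt3L carrying the D124A substitution in the ADD domain (Dnmt3L ADD FGOs), 8 with both copies of Dnmt3a carrying the ADA allele, in which aspartic acids of its ADD domain were changed to alanine (Dnmt3a ADD FGOs), and 8 with both changes (DM FGOs). The 10 MII oocytes were wild type, and no mutant MII oocyte was analysed here. The labels give no age for their donors. For fertilization, the paper took MII oocytes from the oviduct after injections of inhibin antiserum and chorionic gonadotropin, and it took FGOs from punctured ovaries. If the sequenced MII oocytes were taken so, stage cannot be told apart from treatment and source. The ADD domain is the part of DNMT3A and its cofactor DNMT3L that reads unmethylated histone H3. The alleles were germline changes, so that ovarian cells around the oocyte carried them as well as the oocyte. Allelic counts were also used from 3 embryos of embryonic day 9 whose mothers were DM and whose fathers were wild type.

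Collagens are extracellular proteins in which 3 chains wind into a triple helix, and each chain is the product of a gene of its own. Chains are hydroxylated by prolyl and lysyl hydroxylases, folded with the chaperone HSP47 (Serpinh1), secreted, trimmed and cross-linked outside the cell. Fibrillar collagens (types I, II, III, V and XI among them) build the ropes of connective tissue, type IV builds the sheets of basement membranes, type VI forms beaded microfilaments, and the FACIT and transmembrane collagens sit on fibrils or on the cell surface. In the ovary the stroma and the theca, the outer coat of the follicle, are known for fibrillar collagen, and the follicular basement membrane for type IV. The oocyte's own coat, the zona pellucida, is not made of collagen. The comparison of FGOs with MII oocytes asked which collagen transcripts the oocyte held at both stages, and the comparisons between genotypes asked which of them differed when either or both ADD domains were mutated.

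The results turned on a few loci. The sequences below are the 250 bases before the RefSeq start of genes in build GRCm38.p6, shown 5′ to 3′ on the strand of the gene, for the 3 neighbouring type VI genes that held most of the collagen reads of the oocyte (Col6a6, Col6a5 and Col6a4) and for 4 genes that were low together in DM FGOs and in MII oocytes (Col3a1, Col1a2, Col6a1 and Col6a2). The last line gives the 71 bases between the starts of Col4a4 and Col4a3, which face away from each other, on the strand of Col4a4. Capitals mark exact matches on either strand to 4 motifs. The CCAAT box was searched by those letters, and the TATA box was searched as TATAAA. The GC box, a site known to bind factors of the SP family, was searched as GGGCGG. The core that many homeobox factors bind was searched as TAATTG. The motifs share no overlap in these windows.
Col6a6, chr9:105828086-105828335, minus strand: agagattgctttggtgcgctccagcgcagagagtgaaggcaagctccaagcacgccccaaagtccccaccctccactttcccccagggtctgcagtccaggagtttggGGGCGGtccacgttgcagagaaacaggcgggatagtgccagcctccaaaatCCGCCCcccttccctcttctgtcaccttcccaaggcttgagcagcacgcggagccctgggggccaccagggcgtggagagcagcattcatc
Col6a5, chr9:105960644-105960893, minus strand: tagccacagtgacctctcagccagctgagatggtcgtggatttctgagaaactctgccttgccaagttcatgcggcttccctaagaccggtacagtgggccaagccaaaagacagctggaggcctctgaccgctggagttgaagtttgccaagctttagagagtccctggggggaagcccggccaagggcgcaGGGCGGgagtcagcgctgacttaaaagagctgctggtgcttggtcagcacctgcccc
Col6a4, chr9:106096692-106096941, minus strand: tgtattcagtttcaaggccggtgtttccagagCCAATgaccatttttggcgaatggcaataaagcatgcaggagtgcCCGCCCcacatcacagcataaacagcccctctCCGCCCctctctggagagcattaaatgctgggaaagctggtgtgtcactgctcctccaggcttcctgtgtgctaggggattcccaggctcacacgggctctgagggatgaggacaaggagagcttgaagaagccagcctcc
Col3a1, chr1:45311288-45311537, plus strand: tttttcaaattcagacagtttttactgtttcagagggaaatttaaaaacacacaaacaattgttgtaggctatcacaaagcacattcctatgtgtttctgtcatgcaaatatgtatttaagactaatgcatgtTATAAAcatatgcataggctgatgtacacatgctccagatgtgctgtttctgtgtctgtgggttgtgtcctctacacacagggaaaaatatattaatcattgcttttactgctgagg
Col1a2, chr6:4505368-4505617, plus strand: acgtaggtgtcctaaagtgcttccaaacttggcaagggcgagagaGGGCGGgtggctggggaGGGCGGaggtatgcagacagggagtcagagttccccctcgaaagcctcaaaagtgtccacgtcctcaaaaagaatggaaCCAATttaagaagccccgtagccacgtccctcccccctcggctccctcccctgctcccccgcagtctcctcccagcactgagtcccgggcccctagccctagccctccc
Col6a1, chr10:76726045-76726294, minus strand: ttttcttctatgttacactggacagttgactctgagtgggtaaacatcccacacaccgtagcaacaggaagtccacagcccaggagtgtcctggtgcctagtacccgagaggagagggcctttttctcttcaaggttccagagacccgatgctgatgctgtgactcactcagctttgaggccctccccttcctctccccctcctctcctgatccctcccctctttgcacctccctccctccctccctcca
Col6a2, chr10:76623631-76623880, minus strand: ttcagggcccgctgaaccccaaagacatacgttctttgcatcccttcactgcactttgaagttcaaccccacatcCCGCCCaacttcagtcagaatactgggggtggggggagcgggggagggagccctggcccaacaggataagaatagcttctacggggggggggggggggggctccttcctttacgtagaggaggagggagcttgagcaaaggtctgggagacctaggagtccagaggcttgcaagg
Col4a4 to Col4a3 gap, chr1:82586850-82586920, minus strand: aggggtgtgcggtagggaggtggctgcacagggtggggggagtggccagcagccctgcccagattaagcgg

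RefSeq windows matched 35 of the 44 genes. The start used by RefSeq lay at the gene start of the count tables for Col6a5, Col3a1 and Col6a2, and 75 bases from it for Col6a6, 92 for Col6a4 and 804 for Col1a2. The window of Col6a6 held 2 matches to the GC box and 10 CG dinucleotides, that of Col6a5 held 1 and 8, and that of Col6a4 held 2 and 5, with a CCAAT match besides. The Col3a1 window held a TATA match and no CG dinucleotide, and its GC content was 35.2%. Col1a2 held 2 GC boxes and 1 CCAAT match, Col6a2 held 1 GC box and Col6a1 held none of the 4 motifs. The windows of Col3a1, Col1a2, Col6a1 and Col6a2 therefore did not hold any one of the 4 motifs in common. Col1a1 and Col11a1 were also called lower in both comparisons. Col1a1 had no window, and that of Col11a1 held a CCAAT and a GC box match. Over the same 250 bases, a GC box was present in 60% of the 35 collagen windows and in 32.7% of all 32851 windows of the table, a CCAAT box in 34.3% and 33.8%, a TATA box in 14.3% and 12.4%, and the homeobox core in 8.6% and 7.2%. The median number of CG dinucleotides was 10 in the collagen windows and 6 in all windows.

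Library totals ran from 7832458 to 23739871 counts, and values are given as CPM, the count of a gene relative to the library total, scaled by TMM factors. A gene was taken as detected in a library at 1 CPM or more. The oocyte identity of the libraries was checked with 15 oocyte markers (14 with a median of at least 1 CPM in every group). Counts on transcripts of other ovarian cells were not at zero. The 6 theca and interstitial markers (led by Hsd3b1, Cyp11a1, Star and Cyp17a1) summed to 12.6 to 116 CPM in WT FGOs, 8.5 to 43.1 in Dnmt3L ADD FGOs, 4.59 to 40.8 in Dnmt3a ADD FGOs, 1.91 to 5.33 in DM FGOs and 1.82 to 11.9 in MII oocytes. The 14 granulosa and cumulus markers, led by Nr5a2, Cyp19a1 and Kitl in every group, summed to 128.9 to 213 CPM in WT FGOs, 119.5 to 152 in Dnmt3L ADD FGOs, 119.3 to 176 in Dnmt3a ADD FGOs, 132 to 153 in DM FGOs and 116.4 to 136 in MII oocytes, so that over the whole list DM FGOs lay within the WT range. The 11 of them that did not reach 1 CPM in at least 8 MII libraries were also summed, a choice made after the values were seen. Their sums were 19.6 to 91.0 CPM in WT FGOs, 10.4 to 33.7 in Dnmt3L ADD, 7.99 to 33.5 in Dnmt3a ADD and 7.32 to 13.1 in DM FGOs. In MII oocytes, where they were low by choice, the sums were 1.25 to 17 CPM. The 9 stroma and smooth muscle markers, led by Myh11 in every group, summed to 214 to 449 CPM in WT FGOs, 211 to 305 in DM FGOs and 326 to 454 in MII oocytes. Without Myh11, left out by the same rule, the sums were 2.70 to 18.8 CPM in WT FGOs, 2.51 to 8.62 in Dnmt3L ADD, 2.08 to 13.4 in Dnmt3a ADD and 0.763 to 3.18 in DM FGOs. In MII oocytes they were 0.799 to 3.25 CPM, again low by choice. Lum, Tcf21 and Acta2 had no count in any DM FGO or any MII library, while Pdgfra, Dcn and Pdgfrb had counts in both groups. A library pools the RNA captured from everything in the tube, so less captured RNA per cell and fewer attached cells cannot be told apart. A second difference between libraries was the share of mapped reads: all 8 DM FGOs and 8 of 18 WT FGOs lay under 80%, and all 8 Dnmt3L ADD FGOs and 10 of 18 WT FGOs lay at or above it. Of the Dnmt3a ADD FGOs 3 lay under 80% and 5 at or above it. The WT FGOs under 80% were replicates 1 to 8 and the others were replicates 9 to 18. Among WT FGOs the class cannot be told apart from another difference between these sets of libraries.

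The collagens divided into a group that was detected in nearly every oocyte and a larger group that was not. Of the 44 genes, 16 were kept in MII oocytes, meaning that at least 8 of the 10 MII libraries held 1 CPM or more. They were Col4a1, Col4a2 and Col4a3 of the basement membrane, Col6a3, Col6a4, Col6a5 and Col6a6 of the beaded filaments, the FACIT genes Col9a3, Col14a1, Col19a1 and Col22a1, the transmembrane Col13a1, Col23a1 and Col25a1, the fibrillar Col24a1, and Col28a1. Col4a5 was partly kept, with 4 of 10 MII libraries at the limit and 35 of 42 FGO libraries. Col3a1, Col12a1 and Col18a1 were FGO-restricted, at the limit in at least 21 of 42 FGO libraries and in no more than 2 MII libraries. A further 13 genes were sporadic, reaching 1 CPM in 3 to 20 FGO libraries, and 11 were not detected by this rule. The kept genes included 3 of 6 type IV genes, 4 of 6 type VI genes, 4 of 9 FACIT genes and 3 of 4 transmembrane genes, against 1 of 11 fibrillar genes and 0 of 3 network-forming genes of types VIII and X.

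**Figure D1:**
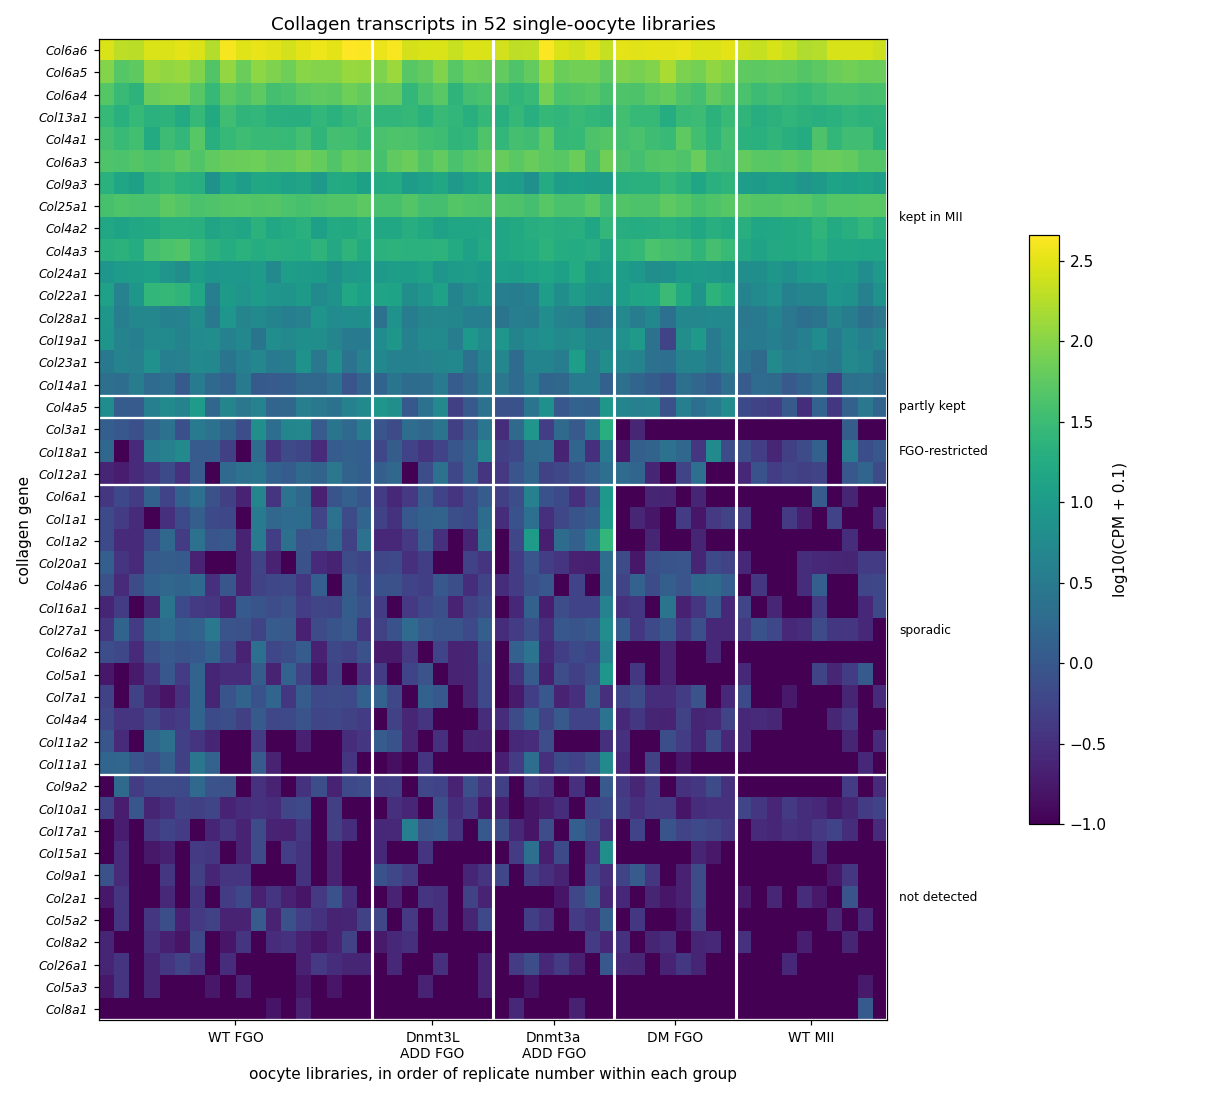
Level of each of the 44 collagen genes (rows) in each of the 52 oocyte libraries (columns, grouped by genotype and stage), as log10(CPM + 0.1); white lines part the groups and the detection classes. The 16 kept genes form bands that run through all 5 groups, whereas Col3a1, Col1a2, Col6a1 and Col6a2 are dark in the DM FGO and MII columns.

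Col6a6, a chain that can take the place of the type VI alpha 3 chain, was the leading collagen. Its level in WT FGOs ran from 172 CPM through a median of 308 to 454. The ranges were 223 to 413 in Dnmt3L ADD FGOs, 196 to 430 in Dnmt3a ADD FGOs, 281 to 338 in DM FGOs and 167 to 276 in MII oocytes. Every DM FGO lay above every MII oocyte, and each other pair of the 5 groups overlapped. The 3 genes Col6a6, Col6a5 and Col6a4 lie in a row on the minus strand of chromosome 9 (positions 105687809 to 106096783 in mm10), with gaps of 27918 and 28811 bases. Together they held a median of 62.7% of all collagen CPM in WT FGOs (range 52.2% to 69.8%), 61.5% in Dnmt3L ADD, 58.4% in Dnmt3a ADD and 62.5% in DM FGOs, and 60.1% in MII oocytes. Col6a5 had medians of 95.9 CPM in WT FGOs and 57.7 in MII oocytes, and Col6a4 of 53.4 and 37.7. The classical type VI chains stood apart from these. Col6a3 was kept at a median of 57.2 CPM in WT FGOs and 54.8 in MII oocytes. Col6a1 and Col6a2, which are needed with an alpha 3-type chain for the canonical type VI molecule, had medians of 0.744 and 0.641 CPM in WT FGOs, and both had a median of 0 in MII oocytes.

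Per length, the order of the levels in WT FGOs was steep at the top and flat below it. RPKM, which divides CPM by the exon length in kilobases, had medians of 33.6 for Col6a6, 10.2 for Col6a5, 6.27 for Col6a4, 5.14 for Col13a1, 4.78 for Col6a3, 4.02 for Col4a1, 3.73 for Col9a3, 3.49 for Col25a1, 2.48 for Col4a2 and 2.10 for Col4a3. Col6a6 exceeded Col6a5 in 18 of 18 libraries, and Col6a5 exceeded Col6a4 in 18 of 18. Below them, Col6a4 exceeded Col13a1 in only 9 of 18 libraries, and each further step down to Col25a1 was seen in 11 to 13 of 18, so those neighbours were not separated beyond their spread. In MII oocytes Col6a6 (26.1 RPKM) and Col6a5 (6.13) again came first, in 10 of 10 libraries, and Col13a1 (5.0) was the next, above Col6a3 in 7 of 10 libraries. Col25a1, a neuronal transmembrane collagen, varied least among the kept genes. Its CPM in WT FGOs ran from 39.4 to 54.1, a coefficient of variation of 9.92%, against 25% for Col6a6 and 61.5% for Col22a1.

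**Figure D2:**
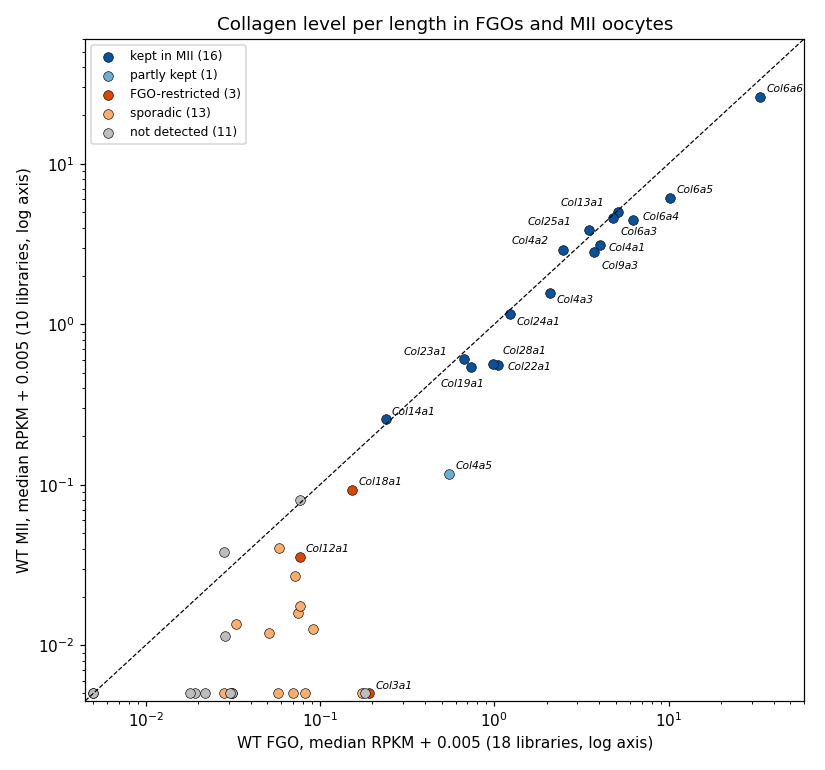
Median RPKM of each collagen gene in WT FGOs (x axis, 18 libraries) and in WT MII oocytes (y axis, 10 libraries), both with 0.005 added and on log axes; colour gives the detection class and the dashed line marks equal levels. The 16 kept genes lie near the line, from Col14a1 (0.234 and 0.250 RPKM) to Col6a6 (33.6 and 26.1), while Col4a5 and most sporadic genes lie below it.

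The type IV genes are arranged as 3 pairs that face away from each other. Col4a1 and Col4a2 were detected alike, whereas the members of the other pairs were not. Col4a1 and Col4a2, whose products form the common type IV molecule, start with an overlap of 22 bases on chromosome 8 and were both kept: medians in WT FGOs were 30.0 and 16.4 CPM, and in MII oocytes 23.4 and 19.0. Col4a3 and Col4a4 start 72 bases apart on chromosome 1. Col4a3 had a median of 20.9 CPM in WT FGOs (15.8 to 45.9) and 15.6 in MII oocytes (12.9 to 20.7), whereas Col4a4 had 0.488 (0.254 to 1.43) and 0.0733 (0 to 0.275). The levels of the pair did not overlap in either group. Of the exon bases of Col4a3, 5.65% are shared with another annotated gene, C430014B12Rik. Col4a5 and Col4a6 start 1309 bases apart on the X chromosome. Col4a5 had a median of 3.66 CPM in WT FGOs and 0.749 in MII oocytes, and Col4a6 had 0.577 and 0.0999. The protein of Col4a3 assembles with those of Col4a4 and Col4a5 in the kidney and other basement membranes, so here transcripts of 1 of its 2 partner chains were near the floor of detection.

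In MII oocytes 12 of 31 collagen genes tested were called lower than in WT FGOs and none higher (edgeR quasi-likelihood test, adjusted p under 0.05 and over 2-fold). Over all genes tested, 9.2% were called in that comparison, and 9% were called lower. The classes above use the same libraries, so that a gene called FGO-restricted or sporadic was low in MII oocytes by choice. Within the 16 kept genes, 1 was called, Col22a1, and at any fold 7 passed the adjusted p. At any fold 18 of the 31 genes tested were lower, against 22.6% of all genes lower and 39.1% changed either way. The median log2 difference of the 31 genes was −0.80, against −0.05 over all genes tested. Read per group of genes, 9 of 11 sporadic genes tested, 1 of 3 FGO-restricted genes and Col4a5 were called lower, and the kept genes ran from −1.10 to 0.16 on the log2 scale.

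The 3 FGO-restricted genes did not form 1 pattern by genotype. Col3a1 reached 1 CPM in most WT FGOs and in no DM FGO. Col12a1, a FACIT collagen found on type I fibrils, reached it in 11 of 18 WT, 4 of 8 Dnmt3L ADD, 3 of 8 Dnmt3a ADD and 3 of 8 DM FGOs. Its level in WT FGOs followed the class of mapped reads, with 0 to 1.04 CPM in the 8 libraries under 80% and 1.06 to 2.71 CPM in the 10 others, and the classes did not overlap. Col18a1, the basement membrane collagen whose end piece is endostatin, reached 1 CPM in 10 of 18 WT, 3 of 8 Dnmt3L ADD, 4 of 8 Dnmt3a ADD and 5 of 8 DM FGOs. Neither Col12a1 (−0.98 ± 0.57, adjusted p = 0.172) nor Col18a1 (−0.68 ± 0.60, adjusted p = 0.380) was called in MII oocytes, so their class rests on the limit of 1 CPM: at 0.5 CPM both were partly kept.

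Among the kept genes, Col22a1, a FACIT collagen of tissue junctions, had 3.55 CPM at the lowest, 9.68 at the median and 27.4 at the highest in WT FGOs, and 3.94, 5.08 and 8.28 in MII oocytes. The ranges overlapped, and the highest WT FGO values came from replicates 4 to 6. The log2 difference, MII minus WT FGO, was −1.10 ± 0.27 (SE, adjusted p = 0.00122). Without replicate 4, 5 or 6 of the WT FGOs the fold fell under 2 (the values from leaving out each library ran from −1.18 to −0.97), and it was −0.68 against the WT FGOs with at least 80% mapped reads and −0.57 (adjusted p = 0.0646) with MII oocytes restricted to that class as well. Col4a3 (−0.61 ± 0.14, adjusted p = 0.000671), Col6a5 (−0.66 ± 0.15, 0.000634), Col28a1 (−0.80 ± 0.18, 0.000435), Col6a4 (−0.52 ± 0.16, 0.00794), Col9a3 (−0.52 ± 0.15, 0.00544) and Col6a6 (−0.40 ± 0.12, 0.00612) fell by less than 2-fold. Col25a1 (0.11 ± 0.06, adjusted p = 0.162), Col4a2 (0.16 ± 0.10, 0.202), Col6a3 (−0.04 ± 0.10, 0.79) and Col13a1 (−0.11 ± 0.09, 0.361) did not pass the test. Col4a5 fell by 1.96 ± 0.46 on the log2 scale (adjusted p = 0.000659), from 1.02 to 10.3 CPM in WT FGOs to 0.20 to 2.68 in MII oocytes.

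The genes with the largest differences were those of types I, III, VI and XI. Col6a2 had 0.119 to 2.07 CPM in WT FGOs, with a count in 18 of 18 libraries, and no count in any of the 10 MII libraries. Its pooled CPM was at least 30.4-fold lower in MII oocytes, with 3 counts over the group as the floor. Col1a2, a chain of type I collagen, had 303 counts over the WT FGOs and 3 over the MII oocytes, all in 1 library, a ratio of pooled CPM of 45.8 (95% counting interval 15.5 to 224). Col3a1, the chain of type III collagen, was at zero in 9 of 10 MII libraries and at 1.10 CPM in replicate 8. Its log2 difference was −4.14 ± 0.71 (adjusted p = 7.24e-06), and −8.05 without that replicate. Col6a1 was likewise at zero in 8 of 10 MII libraries and at 1.06 CPM in replicate 6 (−3.02 ± 0.72, adjusted p = 0.000747). Its difference was −5.36 without that replicate, and −1.24 (adjusted p = 0.41) within the class under 80% mapped reads. Replicate 6 was also the MII library with the highest sum of theca and interstitial markers, 11.9 CPM, and of the 11 granulosa and cumulus markers that did not reach 1 CPM in at least 8 MII libraries, 17 CPM. In that library Col3a1, Col1a2, Col1a1 and Col6a2 had no count, and Col4a6 was at 1.14 CPM. Col1a1, Col7a1 (the anchoring fibril collagen), Col11a1, Col16a1, Col27a1 and Col4a6 completed the 12, with log2 differences of −4.71 to −1.47. Within the class of at least 80% mapped reads 9 genes were called, 8 of them among the 12, and within the class under 80%, with 3 MII libraries, 7 were called, 5 of them among the 12. Col3a1, Col4a5 and Col6a2 were called in both classes. Col16a1 was lost without WT replicate 5 or MII replicate 2, 4, 7 or 8, and Col4a6 without WT replicate 5 or 7 or MII replicate 1, 3, 4, 7 or 8. The part of the marker transcripts in these results was not tested.

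**Figure D3:**
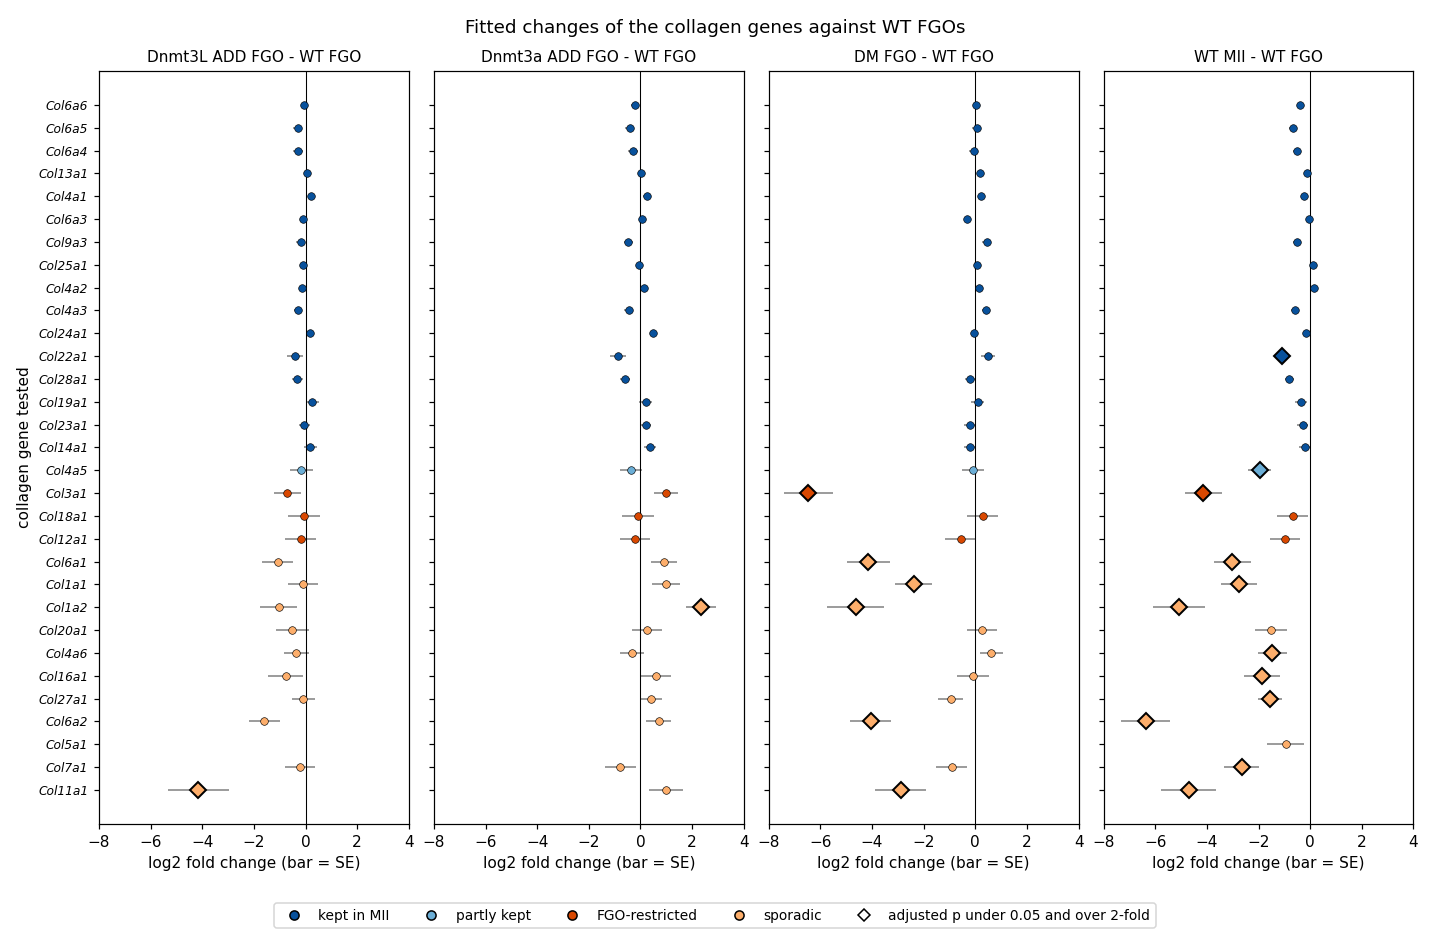
Fitted log2 fold change (point) and its standard error (bar) of each tested collagen gene in 4 comparisons with WT FGOs; diamonds mark genes with an adjusted p under 0.05 and over 2-fold, and colours give the detection class. In the DM comparison the 16 kept genes lie between −0.33 and 0.49, and the 6 called genes between −6.48 and −2.39.

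In DM FGOs 6 of 30 collagen genes tested were called lower than in WT FGOs, and none was called higher. The 6 were the fibrillar Col3a1, Col1a2, Col1a1 and Col11a1 and the type VI chains Col6a1 and Col6a2. Over all genes tested, 1.65% were called in this comparison and 1.48% were called lower. None of the 16 kept genes passed the adjusted p at any fold, as 12.2% of all genes did. The median log2 difference of the 30 genes was −0.08, against −0.01 over all genes tested, and the summed CPM of all 44 genes had a median of 734 in DM FGOs (678 to 832) and 754 in WT FGOs (472 to 929).

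Col3a1 showed the largest difference. In WT FGOs it was counted in every library, from 0.648 through a median of 1.84 to 6.56 CPM. In the 8 DM FGOs it was at zero in 7 and at 0.146 CPM, or 2 counts, in replicate 2. The groups did not overlap. The log2 difference was −6.48 ± 0.95 (adjusted p = 2.21e-05), and over pooled counts, 655 in WT and 2 in DM, the WT level was 136 times that of DM FGOs (95% counting interval 37.6 to 1129). Col1a2 had 0.13 to 3.22 CPM in WT FGOs and was at zero in 6 of 8 DM FGOs, with 0.137 and 0.136 CPM in replicates 3 and 6. Its difference was −4.64 ± 1.10 (adjusted p = 0.00612). Col1a1, whose chains join that of Col1a2 in type I collagen, overlapped between the groups, with 0 to 2.99 CPM in WT FGOs and 0 to 0.457 in DM FGOs (−2.39 ± 0.73, adjusted p = 0.0281). Col6a1 and Col6a2, neighbours on chromosome 10, had counts in all 18 WT FGOs, and they were at zero in 5 and 6 of 8 DM FGOs. Their differences were −4.15 ± 0.83 (adjusted p = 0.00136) and −4.06 ± 0.78 (adjusted p = 0.000844).

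**Figure D4:**
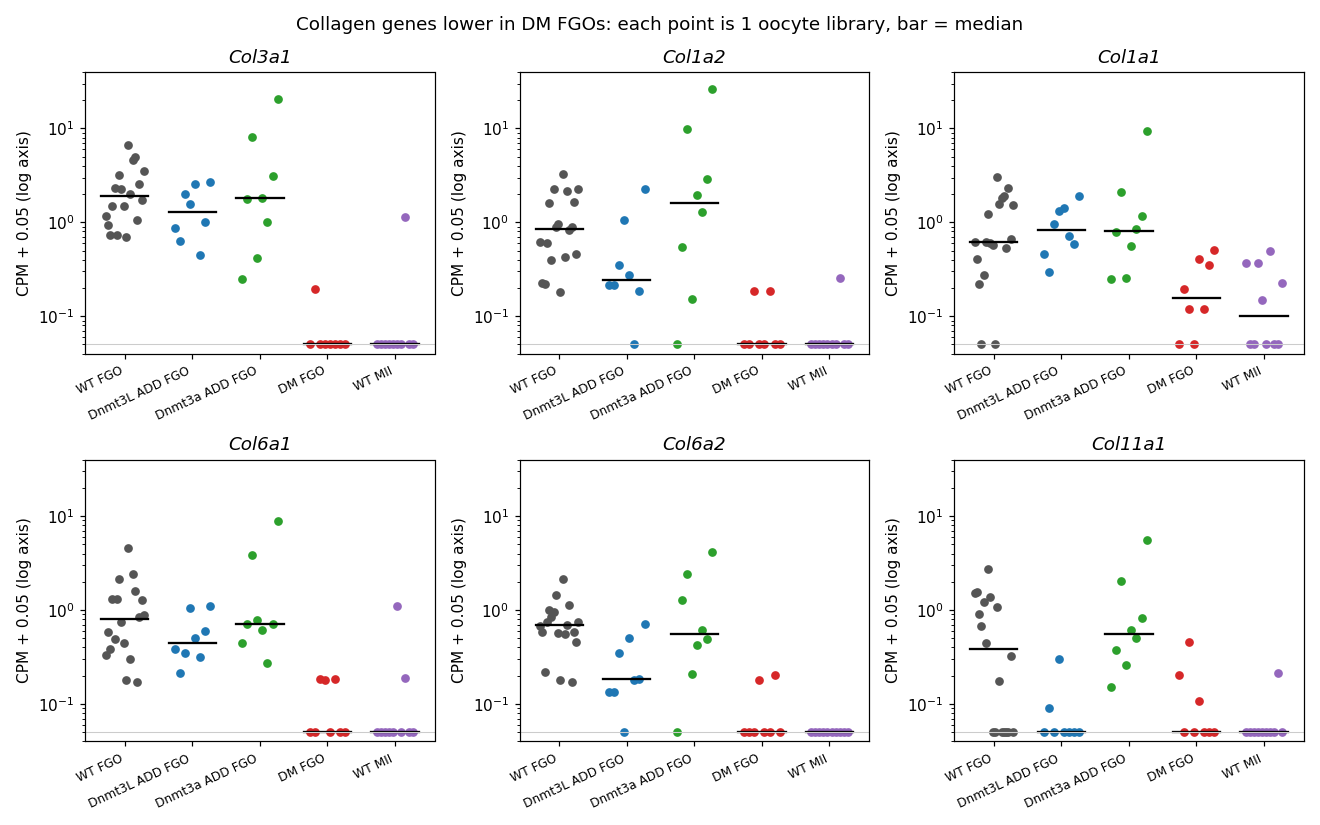
CPM, with 0.05 added and on a log axis, of the 6 collagen genes called lower in DM FGOs; each point is 1 oocyte library, bars are group medians, and points on the grey line are at zero. For Col3a1, 7 of 8 DM FGOs and 9 of 10 MII oocytes sit at zero, and Dnmt3a ADD replicate 8 is the highest library of its group for all 6 genes.

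The share of mapped reads was uneven between these groups, and DM FGOs could be compared within 1 class only. Against the 8 WT FGOs that also lay under 80%, 4 genes were called: Col3a1 (−5.94, adjusted p = 0.00357), Col6a1 (−3.88, 0.022), Col6a2 (−4.17, 0.0147) and Col11a1 (−3.88, 0.0239), by the same edgeR test. Col1a2 had a difference of −4.28 there (adjusted p = 0.0886). Col1a1 was not tested in that subset, and against these WT FGOs with all other FGO libraries kept in the fit it had −1.36 (adjusted p = 0.538). Col11a1 had 0.401 to 2.66 CPM in the WT FGOs under 80%, and in the 10 others it was at zero in 7 and at 0 to 1.04 CPM overall. Against all WT FGOs its difference was −2.89 ± 0.98 (adjusted p = 0.0451), and 13 of its 26 libraries, when left out 1 at a time, took it past the threshold: WT replicates 1, 2, 3, 7, 8 and 11 and every DM replicate other than replicate 3. Col1a1 was lost likewise without DM replicate 3 or 4. Some transcripts of other cells were lower too. The theca and interstitial sum had a median of 24.2 CPM in WT and 3.55 in DM FGOs, and 4 of its 4 tested markers were called lower. Of 13 granulosa and cumulus markers tested, 6 were called lower and 1 higher. Of 4 stroma and smooth muscle markers 1 was called lower. None was called of 3 endothelium and blood markers and 2 surface epithelium markers tested. Over all genes tested, 1.48% were called lower. WT replicate 11 held the highest Col3a1 (6.56 CPM) and the highest theca and interstitial sum (116 CPM). Without it, 5 genes were called in place of 6, with Col11a1 at adjusted p = 0.0593. The part of these transcripts in the differences was not tested.

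**Figure D5:**
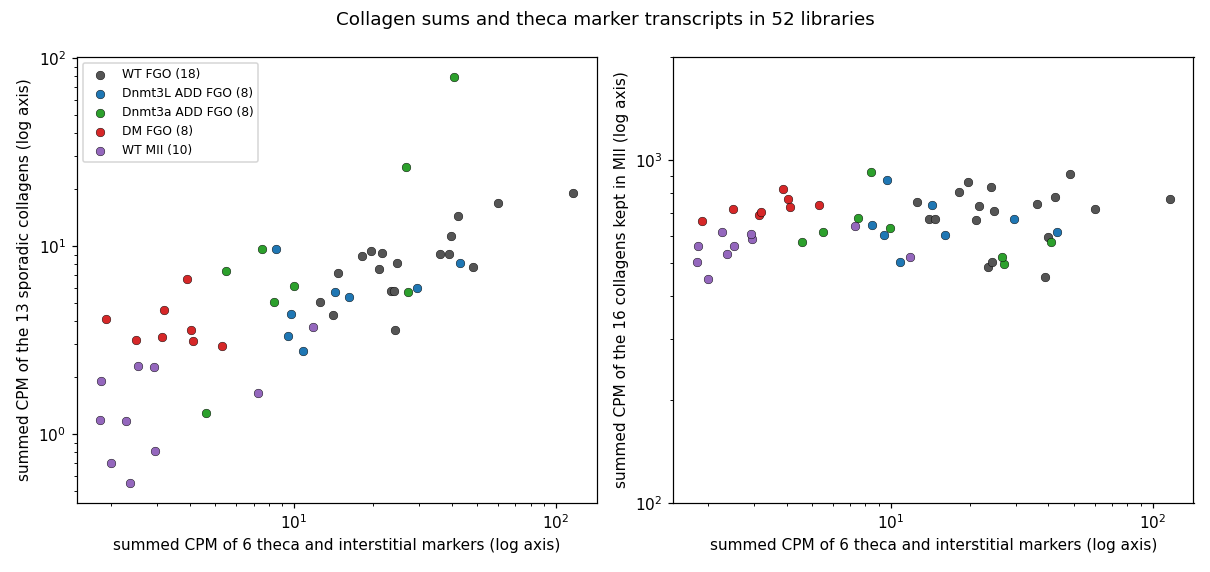
Summed CPM of the 13 sporadic collagens (left) and of the 16 kept collagens (right) against the summed CPM of 6 theca and interstitial markers, on log axes, with 1 point for each of 52 oocyte libraries coloured by group. On the left, DM FGOs (2.94 to 6.68 CPM) and MII oocytes (0.552 to 3.72) lie at the lower left and Dnmt3a ADD replicate 8 (79.2 CPM) at the top, and on the right the sums stay between 451 and 924 CPM.

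In Dnmt3L ADD FGOs 1 of 30 genes was called, Col11a1, which was lower (−4.16 ± 1.17, adjusted p = 0.0271). Over all genes tested, 0.655% were called, and 6.13% passed the adjusted p at any fold. Col11a1, a minor fibrillar chain that is joined into type II fibrils, was at zero in 6 of 8 Dnmt3L ADD FGOs and at 0.0413 and 0.253 CPM in replicates 2 and 4. All 8 of these libraries belonged to the class with at least 80% of reads mapped, in which WT FGOs also had a median of 0. With the class as a covariate the difference was −2.48 (adjusted p = 0.228), and it was lost without Dnmt3L ADD replicate 3, 6, 7 or 8. Within that class in both groups Col11a1 was not among the genes called, and Col4a4 was. The kept genes ran from −0.41 to 0.26, and none passed the adjusted p at any fold. Col3a1 was at 0.397 to 2.66 CPM in these FGOs, within the WT range apart from its lowest libraries (−0.72 ± 0.52, adjusted p = 0.422).

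In Dnmt3a ADD FGOs 1 of 30 genes was called, Col1a2, which was higher (2.34 ± 0.58, adjusted p = 0.0049). Over all genes tested, 2.05% were called and 0.293% were called higher. The values of the 8 libraries were 0, 0.493, 9.92, 0.104, 1.89, 1.24, 2.87 and 26.5 CPM in order of replicate number, so that 6 of them lay within or below the WT range of 0.13 to 3.22 CPM and replicates 3 and 8 lay above it. The class of at least 80% mapped reads held 5 of these libraries, and within it the difference was 1.34 (adjusted p = 0.227, same edgeR test). The class under 80% held replicates 1, 2 and 8, and within it the difference was 3.43 (adjusted p = 0.0284). Replicate 8 was the only Dnmt3a ADD library of that class above the WT range, so this value is not independent of replicate 8. Without replicate 8 the difference was 1.14 (adjusted p = 0.184), and without replicates 3 and 8, a choice made after the values were seen, it was 0.01 (adjusted p = 0.992). Replicate 8 also held the highest level in its group of Col3a1 (20.4 CPM), Col1a1 (9.30), Col6a1 (8.74), Col5a1 (8.24), Col15a1 (6.40), Col11a1 (5.51) and Col6a2 (4.06), and 33 collagen genes reached 1 CPM in it, against 16 to 33 over the group and a median of 19. It was the highest of the 8 for the theca and interstitial sum (40.8 CPM, median 9.17), for the 11 granulosa and cumulus markers (33.5, median 15.6) and for the 8 stroma and smooth muscle markers other than Myh11 (13.4, median 3.52). Over the group, however, 2 of 4 theca and interstitial markers tested were called lower than in WT FGOs and none higher, with a median log2 difference of −1.43. Of 13 granulosa and cumulus markers 4 were called lower and 1 higher, and of 4 stroma and smooth muscle markers 1 was called lower. The part of these transcripts was not tested.

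Of the kept genes, 4 passed the adjusted p in Dnmt3a ADD FGOs with a change below 2-fold. Col24a1, a fibrillar chain found in bone and cornea, rose by 0.47 ± 0.11 on the log2 scale (adjusted p = 0.00391), from 5.42 to 11.4 CPM in WT FGOs to 9.84 to 18. Col22a1 (−0.88 ± 0.31, adjusted p = 0.0464), Col28a1 (−0.60 ± 0.20, 0.0342) and Col4a3 (−0.46 ± 0.16, 0.0476) fell. Counted at any fold, 5 of 30 collagen genes passed, or 16.7%, against 15.7% of all genes tested.

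Compared directly, DM FGOs were lower than Dnmt3L ADD FGOs in 5 of 30 collagen genes (4.03% of all genes tested were called and 1.16% were called lower) and lower than Dnmt3a ADD FGOs in 6, with Col22a1 higher (5.86% of all genes were called, 1.48% lower and 4.38% higher). Both comparisons share the DM libraries. Col3a1, Col1a2, Col1a1, Col6a1 and Col6a2 were called in each, with differences of −5.76, −3.59, −2.29, −3.07 and −2.46 against Dnmt3L ADD FGOs and −7.47, −6.97, −3.38, −5.06 and −4.76 against Dnmt3a ADD FGOs. Dnmt3a ADD replicate 8 was the highest library of its group for each of these genes. The differences from that group, and the departures from the sum below, are not given without it. With the mapped-read class as a covariate, 1 gene, Col3a1, was called against Dnmt3L ADD FGOs. Col22a1 had 7.71 to 31.2 CPM in DM and 3.37 to 10.7 CPM in Dnmt3a ADD FGOs (1.37 ± 0.35, adjusted p = 0.00349), and it was not called with that covariate. Between the single mutants no collagen gene was called, nor was any other gene over 2-fold by edgeR, and 2 genes of all those tested, or 0.0127%, passed at any fold. DESeq2 called 22 genes there, Col11a1 and Col1a2 among them. A test of whether the DM difference departed from the sum of the single-mutant differences passed at any fold for 10 of 30 collagen genes, or 33.3%, against 35.6% of all genes tested. With a departure of over 2-fold it passed for 8, or 26.7%, against 10.3% of all genes (1.53% below the sum and 8.8% above it): Col3a1, Col1a2, Col6a1, Col1a1 and Col6a2 below the sum and Col22a1, Col4a3 and Col9a3 above it.

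Genes that make, move and trim collagen were taken from lists of the same pathway. Of the chain-modifying enzymes and chaperones, 16 of 19 were tested among FGOs, and 4 were called lower in DM FGOs, where 1.48% of all genes tested were called lower. Serpinh1, the collagen chaperone HSP47, fell from 0.706 to 7.94 CPM in WT FGOs to 0.152 to 1.78 in DM FGOs (−1.95 ± 0.38, adjusted p = 0.00101). P3h4, a partner of prolyl 3-hydroxylase, fell by 3.30 ± 0.66, the lysyl hydroxylase Plod2 by 1.57 ± 0.35 and the foldase Fkbp10 by 2.21 ± 0.59 on the log2 scale. These 4 genes had medians of 0.575 to 2.25 CPM in WT FGOs. The abundant prolyl hydroxylase subunits P4ha1 and P4hb had medians of 163 and 250 CPM in WT FGOs and of 140 and 245 in DM FGOs, and neither was called. Of the processing and cross-linking genes, 7 of 14 were tested and 3 were called lower in DM FGOs. Pcolce, the enhancer of procollagen C-proteinase, fell by 3.81 ± 0.75, the collagen-binding Sparc by 1.95 ± 0.44 and the N-proteinase Adamts2 by 1.06 ± 0.32. Hspg2 (perlecan, −1.87 ± 0.50) was the 1 called of 13 basement membrane partners tested. No gene was called of 9 secretion genes, 7 receptors and 5 degradation genes. In Dnmt3L ADD FGOs Plod2 was the 1 pathway gene called (−1.43 ± 0.35, adjusted p = 0.00951). In Dnmt3a ADD FGOs none was called over 2-fold.

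In MII oocytes 3 of 17 modification genes, 1 of 8 processing genes, 2 of 5 degradation genes and 2 of 8 receptors were called lower than in WT FGOs, against 9% of all genes tested. They were Pepd, Colgalt1 and P3h4, then Adamts2 (−2.58 ± 0.35, adjusted p = 3.96e-08), then Mmp14 and Timp3, then Mrc2 and Gp6. None of 9 secretion genes and 13 basement membrane partners was called. The median log2 differences were −0.23 for the modification genes, 0.01 for the secretion genes and −0.04 for the basement membrane partners, against −0.05 over all genes tested. Serpinh1 had a median of 0 CPM in MII oocytes, with no count in 6 of 10 libraries and 5.77 CPM in the highest.

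In the 3 embryos of embryonic day 9 from DM mothers, reads that could be assigned to the maternal or the paternal allele were counted. The totals were 7534598, 8547786 and 6998944 allelic counts, and collagen genes had 26349, 24654 and 14149 of them. These embryos have tissues of many kinds, so the values say which collagens an embryo held, not what the oocyte left to it. Of the 44 genes, 11 had at least 100 allelic counts in each embryo: Col4a1 (4631 to 8341 counts), Col18a1 (3736 to 7308), Col4a2, Col5a1, Col2a1, Col1a2, Col23a1, Col27a1, Col13a1 and the X-linked Col4a5 and Col4a6. The median maternal share of the 9 autosomal genes was 52.9%, 60% and 54.4% in the 3 embryos, and over 7072 autosomal genes it was 51.2%, 57.2% and 51.2%. Col4a1 had a maternal share of 53.8%, 56.6% and 50.9%, and its neighbour Col4a2 of 52.7%, 57.5% and 49.4%. Col1a2 stood apart from them with 61.3% (Wilson 95% interval 57.0 to 65.5), 97.8% (96.9 to 98.4) and 84.1% (76.0 to 89.8), from 504, 1497 and 107 allelic counts. These intervals cover counting error only. High shares in embryo 2 were not limited to Col1a2. Among genes left out by the limit of 100 counts, Col6a1 had 98.1% of 1301 counts there and Col6a2 96.8% of 590. Col6a3 had 100% of 365 and Col3a1 85.9% of 1083. Others did not share this, as Col1a1 had 44.0% of 243 and Col5a2 59.5% of 222. The deposited embryo counts also name wild-type embryos, but no listed sample matches them. No wild-type embryo was analysed here, so the shares have no control.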

How the data were processed

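RNA from single oocytes was made into SMART-Seq HT libraries, a kit that does not mark strand. The authors aligned reads to mm10 with STAR and deposited whole-number counts per gene for each oocyte, and HTSeq is named in the labels. The strand setting and annotation release are not given in the sources used here. The deposited embryo counts are of reads assigned to either allele, and 8 embryo columns that match no listed sample were not used. Coordinates and exon lengths are those of the deposited tables. Libraries were also classed by whether 80% of their reads had mapped, from the read summary of the study.

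Counts were tested with edgeR 4.0.16 in R 4.3.3 by the quasi-likelihood test with TMM factors and Benjamini-Hochberg adjustment, on genes passing filterByExpr with a minimum count of 10. The 4 FGO groups shared a fit of 42 libraries and 15726 genes (30 collagens), and MII oocytes were compared with WT FGOs in a fit of 52 libraries and 15784 genes (31 collagens). A gene was called at an adjusted p under 0.05 and over 2-fold, and ± gives the standard error. CPM used TMM factors, and RPKM divided it by exon length. Pooled ratios carry exact 95% intervals, allelic shares Wilson intervals, and both cover counting error only. Against a count of 0 the floor was 3 counts over the group. The scripts were tested on simulated data: in the DM comparison 72.3% of genes changed 2-fold and 98.5% of genes changed 4-fold were recovered at an adjusted p under 0.05 at any fold, and 7.81% of the calls fell on unchanged genes. DESeq2 1.42.0, other filters, fits and limits were alternatives. No libraries were near-identical.

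The collagen genes, pathway lists and marker lists were chosen with earlier results of these data known. The named genes were the collagens called in a comparison and those with the highest RPKM, and promoter sequences were taken from RefSeq.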

Additional observations from a re-analysis of the deposited data

Results flagged for a closer look

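A library that stood apart from the rest of its group by Dixon's test was found for 20 of 92 values, over 23 collagen genes in the 4 groups of 8 or 10 libraries. For normally distributed values chance flags about 1 in 20 groups. Some of these genes are near zero, and a library that alone has counts in its group is always flagged. The number of flags can therefore not be set against that rate. Dnmt3a ADD replicate 8 held 5 of them, with Col1a2 at 26.5 CPM, Col3a1 at 20.4, Col1a1 at 9.30, Col6a1 at 8.74 and Col11a1 at 5.51. Dnmt3a ADD replicate 4 stood above its group for Col6a5 (124.2 CPM) and Col9a3 (17.9).

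Among Dnmt3L ADD FGOs, replicate 4 stood high for Col11a1 (0.253 CPM), replicate 8 for Col1a2 (2.19), and replicate 7 low for Col23a1 (2.24). Among DM FGOs, Col11a1 in replicate 3 (0.410 CPM), Col3a1 in replicate 2 (0.146), Col6a3 in replicate 6 (65.8) and Col6a5 in replicate 4 (155) stood high. In MII oocytes Col25a1 in replicate 6 (40.5 CPM) stood low, and high values were Col6a1 in replicate 6 (1.06), Col3a1 (1.10) and Col1a2 (0.206) in replicate 8, and Col4a5 (2.68) and Col11a1 (0.163) in replicate 9. The values under 0.5 CPM rest on a few counts.

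The DM difference departed from the sum of the single-mutant differences for 10 genes (edgeR quasi-likelihood test, adjusted p under 0.05). On the log2 scale it lay below the sum by −6.75 for Col3a1, −5.93 for Col1a2, −3.98 for Col6a1, −3.27 for Col1a1, −3.16 for Col6a2 and −0.69 for Col24a1. It lay above the sum by 1.78 for Col22a1, 1.18 for Col4a3, 1.10 for Col9a3 and 0.79 for Col6a5. The sums include Dnmt3a ADD replicate 8, flagged above for Col3a1, Col1a2, Col6a1 and Col1a1. Values without that library are not given here.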

How the results depend on the processing

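The 6 calls in DM FGOs ranged from 4 to 7 over the alternatives, and Col3a1, Col6a1 and Col6a2 kept their direction and side of the threshold in every alternative that tested them. The 12 calls in MII oocytes fell to 7 with both groups under 80% mapped reads and to 6 with no other group in the fit, where 23 collagens were tested. For Dnmt3L ADD FGOs the 1 call became 2 with no filter, 2 with the replicate block, and 0 with DESeq2, with the WT FGOs of at least 80% mapped reads or with that class as a covariate. For Dnmt3a ADD FGOs the 1 call became 2 with no filter, 3 with the WT FGOs under 80%, 0 and 2 within the classes of at least and under 80%, 5 with no minimum fold, 2 with all 52 libraries in the fit and 0 without replicates 3 and 8. DM against Dnmt3L ADD FGOs fell from 5 to 1 with the covariate, and the single mutants differed in 2 genes by DESeq2 and 1 with the block. Leaving out 1 library at a time gave 4 to 6 calls for DM, 0 to 3 for Dnmt3a ADD, 0 to 1 for Dnmt3L ADD and 9 to 13 for MII oocytes. At a limit of 0.5 CPM the partly kept genes were 4 and those not detected 4. At 2 CPM the FGO-restricted genes were 1, the sporadic 8 and those not detected 19. At 0.2 RPKM FGO-restricted genes were 1 and those not detected 17, and without TMM factors the partly kept were 2. The FGO-restricted gene at 2 CPM and at 0.2 RPKM was Col4a5. None of Col3a1, Col12a1 and Col18a1 was FGO-restricted at either of these limits. The cause of these changes was not tested. No result changed direction.

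Replicate numbers were shared between groups, but same-numbered libraries correlated from −0.51 to 0.47 and no pair of groups was above 0.1 throughout, so they were not taken as pairs. With the replicate block 5 genes were called for DM, 10 for MII oocytes and 1 for Dnmt3a ADD FGOs, Col22a1 in place of Col1a2. Genes near 1 CPM rest on few counts, which limits what can be called there.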

Other observations

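The X-linked Col4a5 and Col4a6 had maternal shares of 100% and 100% in embryo 1, 89.5% and 88.7% in embryo 2, and 59.1% and 40.9% in embryo 3. The pair had 181 to 422 allelic counts per embryo. Among autosomal collagens Col23a1 had shares of 46.0%, 42.9% and 41.0%.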
